A study of Mus musculus with 4 samples.

Results

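N6-methyladenosine (m6A) intervals in the coding sequence (CDS) of the last exon were examined in mouse brain, away from the stop codon, where m6A peaks of mRNA are best known to gather. The series held 4 samples of whole brain from 4-week-old C57BL/6J mice, 2 of m6A immunoprecipitation (IP) and 2 of input RNA, and its design names the mice as Prrc2a flox/flox, with no Cre and no treatment in the labels. Each IP sample came with its own list of peaks, 38533 for replicate 1 and 30134 for replicate 2, and the input samples entered only as the denominator of the fold enrichment of each peak. Where peaks of both replicates overlapped, the bases they had in common made a shared interval. Of 23901 shared intervals, 19747 could be placed on the spliced mRNA of 1 gene, and 1645 of them (8.33% of those placed, 6.88% of all) had their midpoint in CDS of the last exon, more than 200 nt before the stop codon and more than 200 nt after the start codon. These 1645 intervals, called last-exon CDS intervals below, lay in 1300 genes. The labels do not say how many animals went into a sample, and whole brain mixes the RNA of neurons, glia and vessel cells. The lists hold no expression values, so the labelled tissue could not be checked against marker levels.

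m6A is a methyl mark that the METTL3 and METTL14 complex places on adenosines of mRNA while it is being made, mostly in the sequence context DRACH, in which D stands for any base but C, R for a purine and H for any base but G, of which GGACT is the best known form. Reader proteins bind the mark and change how long the mRNA lasts, how well it is translated or where it goes. Protein complexes laid down at exon junctions during splicing are known to keep nearby bases from being methylated, so that long internal exons and last exons, which have bases far from any junction, carry most of the mark.

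The sequences in which these intervals lie are given for members that stand for the range of the set, on GRCm38 (mm10) and 5′ to 3′ as the mRNA reads. Capitals mark GGACT, or GGAC where the eligible bases of the interval (CDS of the last exon over 200 nt from start and stop codon) held no GGACT, and the middle base of the shorter windows is the adenosine of the motif. The first 4 came from the 10 intervals with the highest enrichment in both replicates. Zfp420 is printed around its midpoint because the eligible CDS of that interval held no GGAC, and such intervals also occurred among the strongest.
Kcnb2, chr1:15710700-15710780, plus strand: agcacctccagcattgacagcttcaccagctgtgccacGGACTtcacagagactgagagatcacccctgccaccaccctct
Kcnk13, chr12:100061542-100061622, plus strand: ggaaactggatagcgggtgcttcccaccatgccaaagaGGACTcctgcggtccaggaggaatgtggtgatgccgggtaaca
Lingo4, chr3:94402204-94402284, plus strand: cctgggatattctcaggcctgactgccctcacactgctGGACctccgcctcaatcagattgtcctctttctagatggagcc
Zfp420, chr7:29875606-29875686, plus strand: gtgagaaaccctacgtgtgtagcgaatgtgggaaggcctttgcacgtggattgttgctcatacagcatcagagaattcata
The next 3 are genes of the oligodendrocyte lineage, to which the study was addressed.
Olig2, chr16:91226745-91226825, plus strand: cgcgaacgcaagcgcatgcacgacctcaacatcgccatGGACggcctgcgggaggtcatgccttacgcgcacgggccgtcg
Sox10, chr15:79156312-79156392, minus strand: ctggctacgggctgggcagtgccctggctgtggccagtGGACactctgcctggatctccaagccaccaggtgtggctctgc
Cspg4, chr9:56898357-56898437, plus strand: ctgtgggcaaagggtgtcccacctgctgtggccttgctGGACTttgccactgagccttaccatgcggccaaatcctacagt
The last 3 are windows of 240 nt in the intervals with the most GGACT, shown for how the motif recurs within 1 window.
Brinp1, chr4:68762657-68762896, minus strand: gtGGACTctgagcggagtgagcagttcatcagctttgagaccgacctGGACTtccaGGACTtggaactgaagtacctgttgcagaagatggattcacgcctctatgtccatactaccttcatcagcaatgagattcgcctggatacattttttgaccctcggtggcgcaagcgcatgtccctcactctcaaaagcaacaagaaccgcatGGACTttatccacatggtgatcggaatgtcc
Scaf8, chr17:3196995-3197234, plus strand: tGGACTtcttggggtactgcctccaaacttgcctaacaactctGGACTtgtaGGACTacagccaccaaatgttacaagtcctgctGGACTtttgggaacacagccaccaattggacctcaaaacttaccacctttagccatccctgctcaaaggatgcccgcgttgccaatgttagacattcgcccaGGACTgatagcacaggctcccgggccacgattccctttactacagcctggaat
Grin2a, chr16:9578695-9578934, minus strand: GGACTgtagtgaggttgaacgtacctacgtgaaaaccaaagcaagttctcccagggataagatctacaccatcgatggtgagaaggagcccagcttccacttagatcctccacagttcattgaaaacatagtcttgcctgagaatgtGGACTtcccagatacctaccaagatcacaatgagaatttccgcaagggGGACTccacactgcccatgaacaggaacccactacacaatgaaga
Brinp1 encodes a neural cell cycle inhibitor, Scaf8 a factor that binds the tail of RNA polymerase II, and Grin2a the GluN2A subunit of the NMDA receptor. The eligible bases of their intervals held 6, 5 and 5 GGACT, of which 4, 5 and 3 fall in the windows printed.

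The last-exon CDS intervals were strongly enriched in both replicates, and more so in replicate 1. Fold enrichment is the signal of a peak in the IP divided by that in the input, on a linear scale. Its median was 4.23 in replicate 1, with quartiles of 3.22 and 5.31. In replicate 2 it was 2.87, with 2.38 and 3.50 as quartiles. Replicate 1 had the higher value in 83.3% of the intervals. Over all placed intervals the medians were 3.03 and 2.32, and replicate 1 was higher in 78.5%. A fold of at least 2 in both replicates was reached by 1445 of the 1645 intervals (87.8%), against 62.5% of all placed intervals. A fold of at least 4 in both was reached by 147 (8.94%), against 3.24% of all placed intervals. The replicates ranked the last-exon CDS intervals less alike than they ranked all intervals: Spearman's rho was 0.37 over the 1645 and 0.62 over the 19747, given as a description, since the points share 2 libraries and the set spans a narrower range of folds. The replicates came within 1.5-fold of each other in 848 intervals (51.6%).

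**Figure D1:**
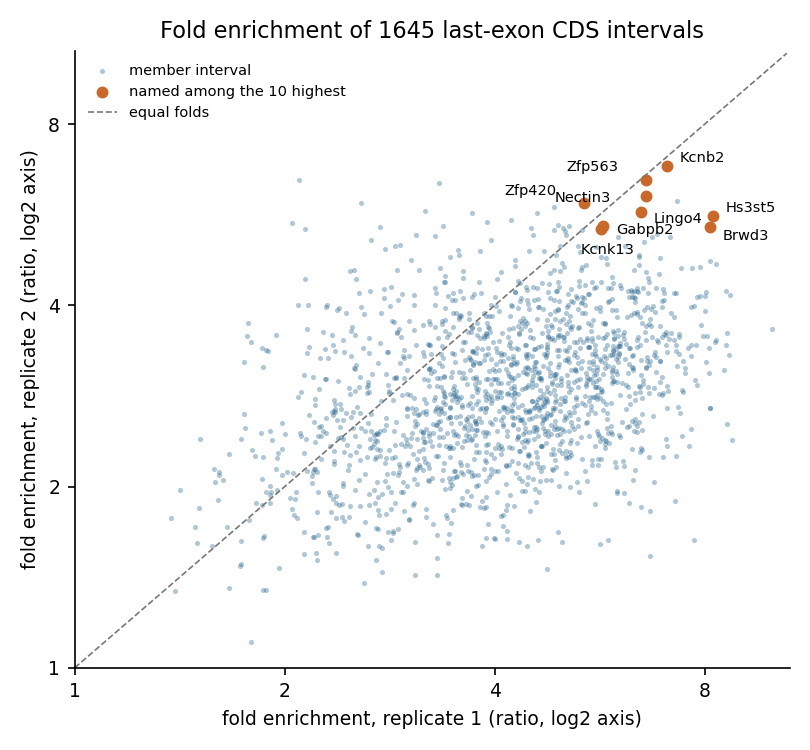
Fold enrichment of each last-exon CDS interval in replicate 1 (horizontal) and replicate 2 (vertical), both as linear ratios on log2 axes; each point is 1 of 1645 intervals and the dashed line marks equal folds. Most points lie below the line (83.3% were higher in replicate 1), and the 9 named intervals had folds above 5 in both replicates.

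The strongest interval was in Kcnb2, which encodes a voltage-gated potassium channel subunit of neurons. Its interval of 1656 nt had a fold of 7.07 in replicate 1 and 6.81 in replicate 2. Zfp563, a zinc finger gene, followed with 6.60 and 6.47. Nectin3, which encodes a cell adhesion molecule of synaptic junctions, had 6.61 and 6.08. In these 3 genes the replicates lay close together.
Lingo4, which encodes a leucine-rich repeat membrane protein, had folds of 6.49 and 5.71. Hs3st5, a sulfotransferase that modifies heparan sulfate, had 8.22 and 5.63. Here replicate 1 was the higher in both genes.
A further 4 of the 10 were Gabpb2 (5.73 and 5.43), a subunit of a GA-binding transcription factor, Brwd3 (8.14 and 5.39), a bromodomain and WD repeat gene, Zfp420 (5.37 and 5.92) and Kcnk13 (5.69 and 5.35), which encodes a tandem-pore potassium channel. Zfp420 was the only one of the 10 with the higher value in replicate 2. The 2 zinc finger genes belong to a family of many similar genes, and reads that map to more than 1 place were dropped by the authors, so their values are less certain than the others.

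In 272 intervals (16.5%) the folds of the replicates were over 2-fold apart, and replicate 1 was the higher in 265 of them. Mfsd5, a membrane transporter gene, had 7.72 in replicate 1 and 1.63 in replicate 2. Diras1, a small GTPase gene of the Ras family, had 6.68 and 1.54, and Zfp36l2, whose protein speeds the decay of AU-rich mRNAs, had 7.25 and 1.90. In the opposite direction, an interval of Zfp563 other than the one above had 2.10 and 6.47, one of Zfp141 had 2.05 and 5.49, and one of Slitrk6, a synaptic adhesion gene, had 2.14 and 5.37. The replicate 2 peak of the Zfp563 interval is the same wide peak that gave its fold to the interval named above. Each fold belongs to the whole peak of its replicate, and 2 peaks may overlap only in part. The Slitrk6 interval was 61 nt and the Mfsd5 interval 270 nt, each shorter than both of its peaks. Such folds are not 2 readings of exactly the same bases. The 1645 intervals came from 1557 peaks of replicate 1 and 1583 of replicate 2, so some of them share a peak and a fold.

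Within each replicate, last-exon CDS intervals had higher folds than the other places in the mRNA that they were compared with. On the log2 scale their mean was 2.02 in replicate 1 and 1.52 in replicate 2. The 4386 intervals within 200 nt of a stop codon were 0.34 lower in replicate 1 and 0.20 lower in replicate 2, a mean difference of 0.27 ± 0.09 (SD over the replicates, n = 2). The 2740 CDS intervals in internal exons of at least 400 nt were 0.24 and 0.18 lower, a mean difference of 0.21 ± 0.05. The 3585 CDS intervals in shorter internal exons were 0.73 and 0.60 lower, and the 3247 intervals of the 3′ UTR were 0.41 and 0.22 lower. All 4 differences had the same sign in both replicates, and an exact two-sided sign-flip permutation test over 2 replicates cannot go below p = 0.5, the value it gave for each. The 533 intervals of single-exon mRNAs, at any place in the mRNA, were not in this comparison and came close. Their log2 means were 1.98 in replicate 1 and 1.46 in replicate 2. High folds were thus not particular to last-exon CDS. The comparison with stop codons sorts intervals by midpoint and does not fully separate the bases. Of the last-exon CDS intervals, 515 (31.3%) included the first base of the stop codon, and each fold belongs to a whole peak. The difference without these intervals was not tested.

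**Figure D2:**
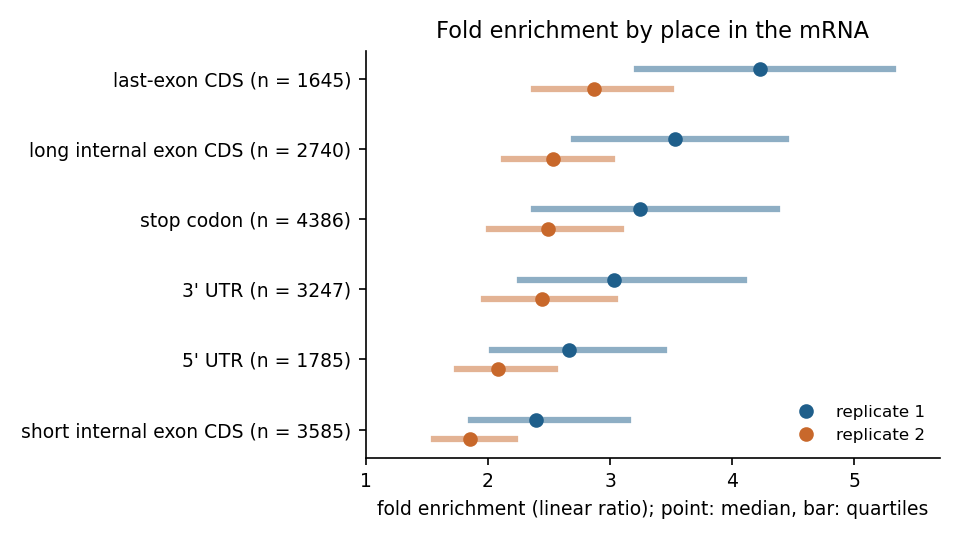
Median (point) and quartiles (bar) of the fold enrichment, a linear ratio, by place of the interval midpoint in the spliced mRNA, for replicate 1 and replicate 2; n is the number of shared intervals. Last-exon CDS intervals have the highest median of the 6 places in both replicates (4.23 and 2.87), and CDS intervals in short internal exons the lowest (2.39 and 1.86). Intervals of single-exon mRNAs, which are not drawn, had medians of 4.01 and 2.73.

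The intervals were also longer than the others, and fold went with length. Their median length was 521 nt (quartiles 317 and 855), against 344 nt at stop codons, 413 nt in long internal exons and 338 nt over all placed intervals. Spearman's rho of length with the lower of both folds was 0.39 over the 1645 intervals, again as a description. Among intervals of 451 to 900 nt, the median folds in replicates 1 and 2 were 4.49 and 3.03 for 552 last-exon CDS intervals, 4.27 and 2.93 for 1059 at stop codons, and 3.89 and 2.69 for 957 in long internal exons. Among intervals of 251 to 450 nt they were 3.57 and 2.61 for 494 last-exon CDS intervals, 3.07 and 2.47 for 2314 at stop codons, and 3.35 and 2.48 for 1056 in long internal exons. The differences from both classes kept their sign in both ranges of length, and at 451 to 900 nt that from stop codons was the smaller. The part that length has in the folds was not tested.

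Within the same gene, the strongest last-exon CDS interval was the higher about as often as the strongest interval at the stop codon. The highest fold of each kind was taken in each replicate, which favours the kind with more intervals per gene. Over all genes, 1645 last-exon CDS intervals lay in 1300 genes, 4386 at stop codons in 4199, and 2740 in long internal exons in 1744. Of 255 genes with an interval of both kinds, 120 shared a wide peak between them, which left 135 genes with distinct peaks. The last-exon CDS interval had the higher fold in 70 of the 135 (51.9%) in replicate 1 and in 66 (48.9%) in replicate 2. It was higher in both replicates in 50 genes, lower in both in 49 and mixed in 36. Against intervals in long internal exons of the same gene, it was higher in 118 of 187 genes (63.1%) in replicate 1 and in 111 (59.4%) in replicate 2. There it was higher in both replicates in 89 genes, lower in both in 47 and mixed in 51. Genes are not replicates, and no test was run over them.

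The midpoints of the intervals lay well inside the last exon, which the rule and the width of the intervals partly fix. The midpoint was a median of 528 nt after the last exon junction (quartiles 309 and 980) and 535 nt before the stop codon (quartiles 317 and 1002). There were 36 midpoints (2.19%) within 100 nt of the junction and 154 (9.36%) within 200 nt. In genes with a shared interval, the first 100 nt held 244820 of 1798160 eligible bases. A wide interval that starts inside the last exon cannot have its midpoint next to the junction, so these shares do not measure how methylation is spread. Although the midpoint was over 200 nt away by definition, 515 intervals (31.3%) reached the stop codon. In addition, 165 (10.0%) crossed the start of the last exon and 79 (4.80%) contained the start codon, while 1018 (61.9%) lay in CDS of the last exon from end to end. In 322 intervals of 249 genes the whole CDS was in the last exon.

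Per base, shared intervals, wherever their midpoint lay, covered the first bases after the junction least. The last-exon CDS over 200 nt from start and stop codon was called eligible, and in genes with a shared interval 55.3% of its bases were in one. The share was 31.3% in the first 100 nt after the last exon junction, 59.9% from 101 to 200 nt and 68.2% from 201 to 300 nt, the highest of the ranges taken. It then fell to 60.9% from 401 to 600 nt, 55.6% from 1001 to 2000 nt and 48.1% beyond 2000 nt. Peaks of each replicate alone showed the same rise: 45.2% to 78.1% in replicate 1 and 41.1% to 74.4% in replicate 2, from the first 100 nt to 201 to 300 nt. Because long stretches enter only the far ranges, the share was also taken in the 434 genes whose CDS enters the last exon from an earlier one and that have at least 1000 nt of eligible CDS. There it was 25.8% in the first 100 nt, 53.8% in the next 100 nt, 61.9% from 201 to 400 nt, 53.8% from 401 to 1000 nt and 52.0% beyond. Measured from the other end, the share was 60.6% from 201 to 300 nt before the stop codon and 38.6% beyond 2000 nt. Peaks are at least 200 nt wide by the way they were called, so the place of a rise cannot be read more finely than that.

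**Figure D3:**
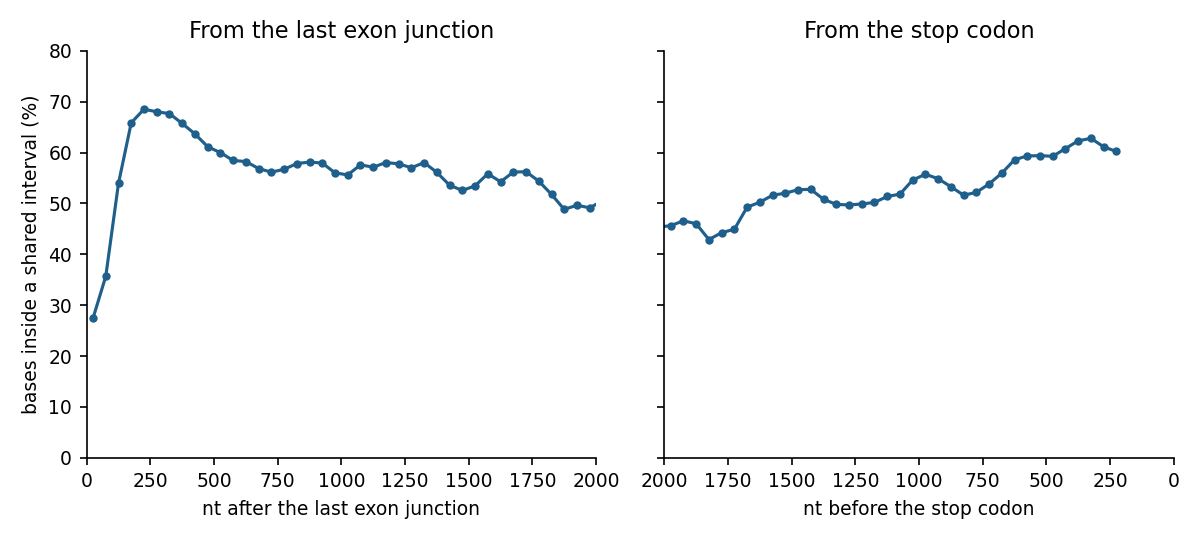
Share of eligible last-exon CDS bases inside a shared interval, in bins of 50 nt, by distance after the last exon junction (left) and before the stop codon (right); each point pools the genes that hold a shared interval and have eligible bases at that distance. The share rises from 27.5% in the first bin to 68.5% in the bin centred on 225 nt.

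Fold enrichment was lowest next to the junction, and its highest medians came further along than the highest coverage. In the 154 intervals within 200 nt of the junction the medians were 3.08 and 2.58 in replicates 1 and 2. In the 448 intervals from 201 to 400 nt, where coverage was highest, they were 3.99 and 2.76. In the 305 from 401 to 600 nt they were 4.61 and 3.03, and in the 115 beyond 2000 nt, where coverage was lowest but for the first 100 nt, 4.12 and 2.88. The intervals near the junction were also shorter, with a median of 316 nt against 733 nt from 401 to 600 nt and 539 nt beyond 2000 nt. By distance to the stop codon, the medians were 4.56 and 2.93 from 201 to 400 nt and 3.52 and 2.74 beyond 2000 nt. At the limit of 200 nt before the stop codon there was no step. The 213 intervals at 201 to 250 nt had medians of 4.48 and 2.87, and the 272 at 151 to 200 nt, which were not taken, had 4.18 and 2.85. At the limit after the start codon, 16 intervals inside had 3.07 and 2.82 and 19 outside had 3.22 and 2.57.

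The sequence context of m6A was denser inside the intervals than in eligible CDS of the same genes outside every peak. GGACT occurred 1075 times in 807423 nt of the intervals, 1.33 per kb, and 131 times in 280292 nt outside, 0.47 per kb, a ratio of 2.85. Of the 1300 genes only 768 had eligible CDS outside every peak. With the inside limited to these 768 genes the densities were 1.31 and 0.47 per kb, a ratio of 2.80. The core GGAC, which contains every GGACT, had a ratio of 2.20 (5.30 against 2.40 per kb), and DRACH as a whole 1.28 (22.1 against 17.3 per kb). Among the DRACH forms, GGACT had the highest ratio, followed by GGACA (2.07), GGACC (1.96) and GAACT (1.77), while AAACC was less dense inside than outside (0.69). The intervals held more G and C, 53.7% against 49.2% outside. The part of base composition in these ratios was not tested. A match of letters does not show that the site is methylated, and the antibody does not resolve single bases.

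Motifs were counted in the eligible CDS of each interval, and an interval can hold more outside it. There, nearly all intervals had a DRACH, but fewer than 1 in 2 had GGACT. DRACH was found in 1630 of 1645 intervals (99.1%), GGAC in 1361 (82.7%) and GGACT in 729 (44.3%, 95% Wilson interval 41.9 to 46.7, counting error only). Of the 10 strongest intervals, Kcnb2 and Kcnk13 held 2 GGACT each and Zfp563 held 1. Nectin3, Lingo4, Hs3st5 and Brwd3 held GGAC without GGACT, and Gabpb2 and Zfp420 held neither. In Gabpb2 only 103 nt of the interval were eligible CDS. Without regard to length, folds were higher with more motifs. The medians were 3.38 and 2.71 in the 284 intervals without GGAC, 4.04 and 2.85 in the 632 with GGAC but no GGACT, 4.50 and 2.88 in the 488 with 1 GGACT, 4.67 and 2.97 in the 167 with 2, and 5.14 and 3.12 in the 74 with 3 or more. Longer intervals have room for more motifs, and the median of searched bases rose from 244 to 940 nt over these sets. With 250 to 450 nt searched, the medians were 3.58 and 2.71 without GGAC, 3.88 and 2.65 with GGAC only, 4.16 and 2.88 with 1 GGACT, 4.59 and 2.72 with 2, and 4.28 and 3.43 in the 10 intervals with 3 or more. At that length neither replicate rose at every step.

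Motifs were also counted by distance from the midpoint, in eligible CDS that ran past the ends of the shorter intervals. These counts mix bases inside and outside, so they cannot show a gradient within an interval. GGACT was densest near the midpoint. It reached 1.41 per kb in the 50 nt before the midpoint and 1.59 per kb in the 50 nt after it, and 1.05 and 0.55 per kb in the bins centred 275 nt before and after. GGAC peaked at 5.80 per kb in the 50 nt before the midpoint.

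The extra GGACT lay mostly in 1 reading frame. When the A of GGACT is at codon position 2, its codon is GAC, which encodes aspartate, as in the Kcnb2 site printed above (codon 612) and the Cspg4 site (codon 2164). In the intervals 588 of 1075 GGACT (54.7%, Wilson interval 51.7 to 57.7) were in this frame, against 51 of 131 outside peaks (38.9%, Wilson interval 31.0 to 47.5). The ratio of density inside over outside was 4.00 in this frame and 2.11 and 2.12 with the A at codon positions 1 and 3. In every frame the motif was denser inside. GGACA, which differs in the last base, did not share this pattern: its ratio was 1.98 at codon position 2 and 2.00 and 2.49 at positions 1 and 3. GGACC had 2.45, 1.98 and 1.26 at positions 2, 1 and 3. When the intervals and the outside stretches were taken from the peaks of a single replicate, the excess of 15.8 percentage points at position 2 became 9.48 with replicate 1 alone and 7.58 with replicate 2 alone.

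**Figure D4:**
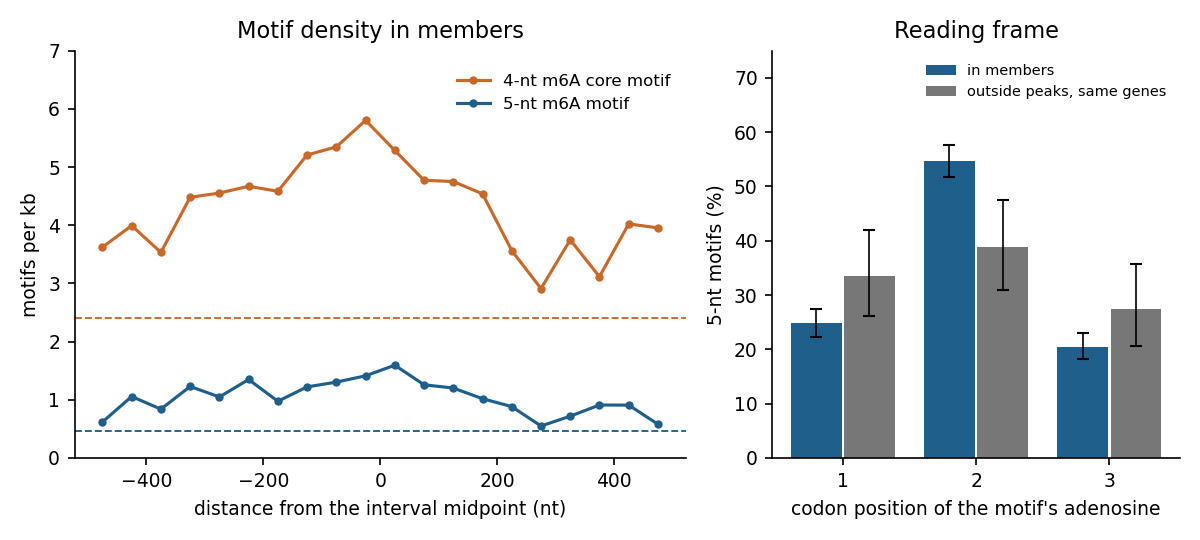
Left, number of GGAC (4-nt core) and GGACT (5-nt motif) per kb of eligible CDS by distance from the interval midpoint in bins of 50 nt, with dashed lines in the same colours for the density outside peaks in the same genes (2.40 and 0.47 per kb). The counts on the left include eligible CDS past the ends of the intervals. Right, share of GGACT by codon position of its adenosine in the intervals (1075 motifs) and outside peaks (131 motifs), with 95% Wilson intervals; position 2 holds 54.7% in the intervals and 38.9% outside.

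Peaks in this stretch recurred in the other replicate more often than peaks elsewhere. Of 1863 replicate 1 peaks with their midpoint there, 84.0% overlapped a replicate 2 peak, against 69.5% of all placed replicate 1 peaks. Of 1656 replicate 2 peaks, 94.1% overlapped a replicate 1 peak, against 77.5%. The 298 replicate 1 peaks that did not recur had a median fold of 3.04, below the 4.22 of those that did, and the 97 of replicate 2 had 2.51 against 2.87. Long internal exons were close, with 82.2% and 92.9%. An overlap of 1 bp was enough, and shared intervals here were longer, with a median of 521 nt against 338 nt over all placed. The part that width and fold have in this recurrence was not tested.

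Whether a gene held such an interval went with the room it had. Of 3626 genes with eligible last-exon CDS and a shared interval anywhere in their exons, 1300 (35.9%) held at least 1. The share was 2.63% of 1638 genes with at most 200 nt of eligible CDS, 35.2% of 804 with 201 to 500 nt, 73.0% of 625 with 501 to 1000 nt and 91.3% of 447 with 1001 to 2000 nt. It was 97.9% of 95 genes with 2001 to 4000 nt and 100% of 17 above that. Bend3 and Zbed4 were the only genes over 2000 nt without one. Bend3 had 1 peak of each replicate in the stretch, and Zbed4 had 4 of replicate 1 and 1 of replicate 2, none with a shared midpoint there. Per kb of eligible CDS the number of intervals was 0.36 below 200 nt, 1.09 from 501 to 1000 nt and 0.70 above 4000 nt.

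**Figure D5:**
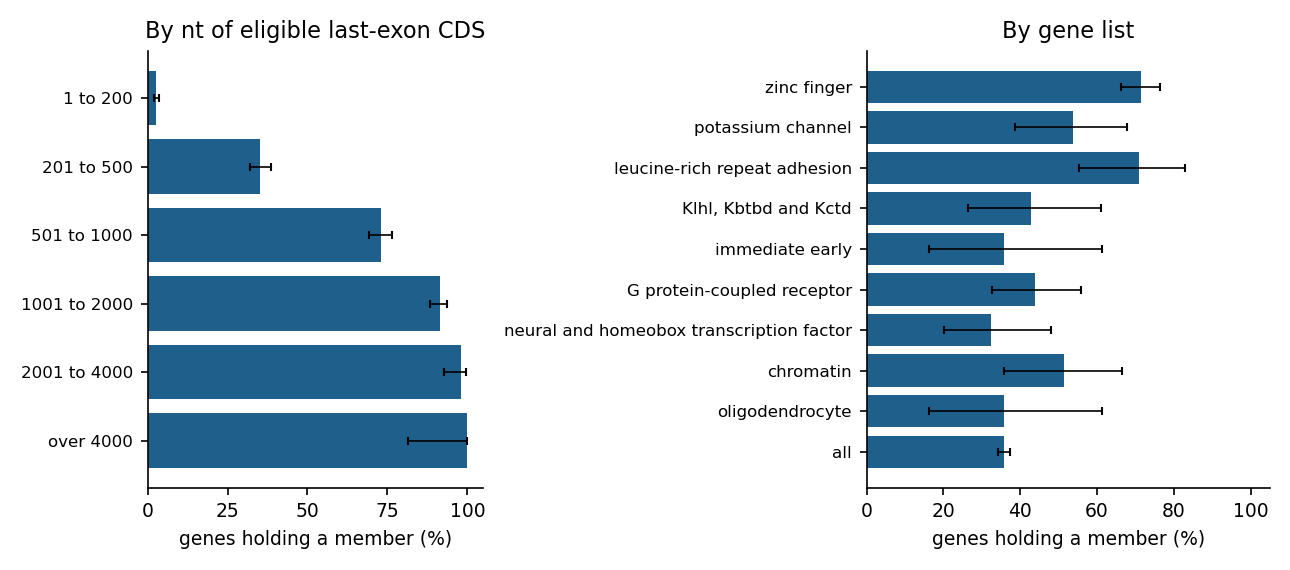
Share of genes holding a last-exon CDS interval, among genes with eligible CDS and a shared interval, by length of eligible CDS (left) and by gene list (right), with 95% Wilson intervals that cover counting error only. The share rises from 2.63% to 100% with length; zinc finger genes (71.6%) and leucine-rich repeat adhesion genes (71.1%) are above all genes together (35.9%).

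Most genes held 1 interval (1048 of 1300), 196 held 2 and 56 held 3 or more. Ahnak, which encodes a giant scaffold protein, held the most with 10, spread over 16423 nt of eligible CDS of which they covered 16.0%. Their folds ranged from 1.90 to 6.46 in replicate 1 and from 1.86 to 3.44 in replicate 2, and the strongest was the one nearest to the last junction, 152 nt after it. Apc, whose protein holds beta-catenin in check in the Wnt pathway, held 8 that covered 79.1% of 6374 nt, with folds of 2.20 to 5.84 and 1.65 to 4.07. The 7 intervals of Zfp292 covered 39.0% with folds of 2.28 to 4.48 and 2.25 to 4.93, and the 6 of Plec, the cytoskeletal linker plectin, covered 65.2% with 1.57 to 4.25 and 1.60 to 2.93. Long last exons thus differed widely in how much of them was covered, with Apc and Plec high and Ahnak low.

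Gene lists, each defined by gene symbols and not by full membership of a family, were set beside the share of 35.9% over all genes and beside their room. Zinc finger genes, whose fingers are often encoded in a long last exon, held an interval in 219 of 306 genes (71.6%), with a median of 1091 nt of eligible CDS against 258 nt over all genes. Among genes with over 500 nt the share was 85.9% for zinc finger genes and 82.3% for all. Their 311 intervals had a median fold of 3.71 in replicate 1, below the 4.23 of all last-exon CDS intervals, and 3.04 in replicate 2, above the 2.87. The third of this list by fold, after Zfp563 and Zfp420, was Zfp711 with 5.11 and 5.41.
Leucine-rich repeat adhesion genes, many of which organise synapses, held one in 27 of 38 genes (71.1%), and in 27 of 29 with over 500 nt. Slitrk4 (6.73 and 5.21) and Lrrc4c (5.89 and 4.47) followed Lingo4. The symbols of this list also include Nyap1 and Nyap2, which are not leucine-rich repeat genes.
Potassium channel genes held one in 22 of 41 genes (53.7%), but in 17 of 25 with over 500 nt (68.0%), below the 82.3% of all genes of that length. Their median folds were 4.21 and 3.43. Kcnh5, a channel of the ether-a-go-go family, had 5.07 and 5.24. The genes with the symbols Klhl, Kbtbd or Kctd, many of them adaptors of ubiquitin ligases with a BTB domain, held one in 12 of 28 (42.9%). With over 500 nt, all 6 held one. The list was led by Kbtbd2 (4.87 and 4.58), Klhl11 (5.76 and 3.75) and Klhl15 (3.71 and 5.69). In Klhl15 replicate 2 was the higher.
Chromatin genes held one in 19 of 37 (51.4%), and in all 17 with over 500 nt, with median folds of 5.90 and 3.38, the highest of the 9 lists in replicate 1. In replicate 2 the potassium channel genes were slightly higher. Arid1b, a subunit of the BAF remodelling complex, had 6.44 and 4.67, and Ep300, a histone acetyltransferase, had 5.28 and 4.31.
G protein-coupled receptor genes held one in 29 of 66 (43.9%), but in 25 of 45 with over 500 nt (55.6%), below the 82.3% of all genes of that length. Drd1, the D1 dopamine receptor, had 5.26 and 4.12, Gpr22 4.80 and 4.12 and Gpr75 6.80 and 3.90.
Neural and homeobox transcription factor genes held one in 13 of 40 (32.5%). Neurod6 had 5.08 and 3.59, Bcl11a 4.92 and 3.38 and Neurod2 5.51 and 3.02, all 3 known in cortical neurons. Immediate early genes, which respond to neuronal activity, held one in 5 of 14 (35.7%), and in all 4 with over 500 nt. Bdnf, a neurotrophin, had 5.09 and 4.18, Egr2 5.19 and 3.47 and Egr1 5.06 and 2.29, and the replicates were furthest apart in Egr1.

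Oligodendrocyte genes held an interval in 5 of 14 genes (35.7%, Wilson interval 16.3 to 61.2), beside 35.9% over all genes. They had more room, a median of 523.5 nt of eligible CDS, and among those with over 500 nt the share was 5 of 8 (62.5%), beside 82.3% of all genes of that length. Shared intervals in exons were seen in 14 of the 15 genes of this list with eligible CDS, beside 3626 of 7878 over all genes. In bulk tissue, fewer oligodendrocytes and less RNA per cell cannot be told apart, and neither is measured by a ratio of IP over input. Zfp536 had folds of 8.11 and 3.40 and Lingo1, which encodes a brake on myelination, 6.50 and 3.25. Cspg4, the NG2 proteoglycan of oligodendrocyte precursors, held 2, with folds of 6.82 and 3.11 at 405 nt after the junction and of 4.43 and 3.32 at 1264 nt. Sox10, a transcription factor of the lineage, held 1 with 3.39 and 2.19. Replicate 1 was higher in each of these.
Olig2, the transcription factor that specifies the lineage, held 1 at chr16:91226345-91226889, from the first base of exon 2 into the CDS, with folds of 2.69 and 1.88, which placed it at rank 1502 of 1645 by the lower fold. Its midpoint was 217 nt after the start codon and 752 nt before the stop codon, close to the limit of the rule. Both GGACT of the interval lay within the first 200 nt of the CDS, with their A at CDS bases 5 and 112, so the eligible bases held only the GGAC printed above (codon 129). The site that the paper names as high-confidence m6A, and that it mutated in its assays, is the A at base 112.
Nes, the gene of the intermediate filament nestin of neural progenitors, held 5 that covered 52.2% of 4407 nt of eligible CDS. Their folds ranged from 3.06 to 5.15 in replicate 1 and from 3.02 to 5.45 in replicate 2, and all 5 were above 3 in both. Prrc2a, Ythdf2, Fto, Pdgfra and Mbp, which were looked up with these, held none. Their room and their intervals elsewhere are not given here, so this does not show that they lack m6A.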

How the data were processed

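The authors isolated mRNA from mouse brain, fragmented it and precipitated it with an antibody against m6A. According to the study's methods, adapters were trimmed with Cutadapt, short and ambiguous reads dropped with Trimmomatic, the rest aligned to mm10 with TopHat and uniquely mapped reads kept. The submitters' processing notes name TopHat2 2.0.9 and MACS2. The authors called peaks with MACS2 for each IP replicate against its own input, with no fragment model, all duplicates kept and a cutoff on the false discovery rate, so strength in a peak may rest on few molecules. Per the file headers, the deposited values of a peak are its position and its enrichment, a linear ratio (fold) of IP over input. No read counts came with them, so depth is unknown and no interval that needs it is given. There are 2 IP samples, which the study's methods call biological replicates. The labels do not tie them to animals.

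Peaks of both lists were intersected (at least 1 bp). The midpoint of the common bases was placed on GENCODE M21 mRNAs, the longest CDS of each gene (21732 transcripts, sequence from GRCm38 patch 6). Single-exon mRNAs were among these and count in the placed intervals, while the last-exon CDS class required at least 2 exons. Midpoints in exons of several genes were left out. Motifs were counted in the mRNA sense inside intervals clipped to eligible CDS, and in eligible CDS of the same genes outside all peaks of either replicate. Differences of log2 fold were taken within each replicate, and the only test was an exact sign-flip permutation over the replicates, since intervals and genes are not replicates. The code was tested on simulated transcripts with known answers (Python 3.11.15, numpy 2.4.6). The members and lists were chosen with earlier results of these data known. Named genes were the 10 highest by the lower fold, the 5 genes with most intervals, 9 genes followed in the study or its field, the 3 highest of each list, the 3 with most GGACT and the 3 with the largest ratio between folds each way. A few of these are not reported here. Alternatives were another overlap, fold filter, limit, transcript, motif, background and single replicates.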

Additional observations from a re-analysis of the deposited data

How the results depend on the processing

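Over 9 results and 73 alternatives, 45 stayed within 1.5 times the count or within 1 SD between the values of each replicate. A change of sign was possible only for the log2 differences and the excess at codon position 2, and none was seen there. Counts, ratios and shares have no sign to reverse. The number of intervals was 941 at 400 nt from start and stop codon, and 1656 to 1863 from single replicates. The log2 difference from stop codons was 0.18 and 0.084 in replicates 1 and 2 with a fold of at least 2 in each list, and 0.23 in replicate 1 among intervals of 251 to 450 nt. That from long internal exons in replicate 1 was 0.18 with the fold filter, 0.19 at 400 nt from start and stop codon and 0.13 among intervals of 251 to 450 nt, and 0.089 in replicate 2 at that length. The ratio of 2.85 for GGACT was 2.20 for GGAC, 1.28 for DRACH, 2.39 against all genes with a shared interval, 3.15 in 100 nt around midpoints, 2.59 at that limit, 2.56 without zinc finger genes and 2.14 to 2.38 from single replicates. Coverage of 55.3% was 43.5% at 1 to 200 nt from the junction, 67.5% at 201 to 400 nt, 58.8% at 401 to 1000 nt and 60.3 to 63.3% from single replicates. The share of genes, 35.9%, was 31.8% at 50% overlap and 82.2% with at least 500 nt of eligible CDS. The excess of GGACT at codon position 2, 15.8 percentage points, was 17.4 without zinc finger genes, 17.3 without the 5 genes with the most intervals, 13.7 on the longest spliced transcript and 7.58 to 9.48 from single replicates. The cause of these changes was not tested. The length range, the gene exclusions and all alternatives for the reading frame were chosen after seeing the data. No paired analysis was possible because the input samples have no processed values here and each IP sample has only 1 list. Each peak's precision is limited by an unknown depth, and by 2 IP samples.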
